A study of Arabidopsis thaliana with 27 samples.

Results

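The 10 genes of the core of peroxisomal β-oxidation were followed through 1 day of heat and 1 day of recovery in Arabidopsis thaliana. They are the acyl-CoA oxidase genes ACX1 (AT4G16760), ACX2 (AT5G65110), ACX3 (AT1G06290), ACX4 (AT3G51840) and ACX5 (AT2G35690), the multifunctional protein genes MFP2 (AT3G06860) and AIM1 (AT4G29010), and the 3-ketoacyl-CoA thiolase genes KAT1 (AT1G04710), KAT2 (AT2G33150) and KAT5 (AT5G48880). The genes were chosen by their locus codes, a rule that uses no measured value, but with earlier results of these data known. Each of the 10 genes was read by 1 probe set, out of 22746 probe sets on the array. The probe set of ACX3 is annotated as also detecting AT3G06690, so that its signal cannot be assigned to ACX3 alone.

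The plants were wild-type Col-0, raised on agar at 22 °C with 16 h of light and 8 h of darkness a day. Heat08hr and Heat24hr plants were taken 8 and 24 h after 18-day-old plants had been moved to 38 °C, at 18 and 19 days of age. Recovery08hr and Recovery24hr plants were taken 8 and 24 h after the return to 22 °C that followed the day at 38 °C, at 19 and 20 days of age. Control08hr plants (18 and 19 days) and Control24hr plants (18, 19 and 20 days) stayed at 22 °C and were harvested at the clock times of the treated plants, about 11 h after light onset for the 08hr groups and about 3 h after light onset for the 24hr groups. The hours of heat or recovery and the clock time therefore change together and cannot be told apart between an 08hr group and a 24hr group. RNA of each biological replicate was hybridised to 1 Affymetrix ATH1 array, a 1-colour array of short oligonucleotide probes. There were 3 arrays for each of the 4 treated groups, 6 for Control08hr and 9 for Control24hr, 27 in all. Values are MAS5 signals on a linear scale, with a nearly equal trimmed mean on every array. Signals of different probe sets are not comparable as levels, because probes differ in their response, so each gene was compared only with itself.

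β-Oxidation shortens the carbon chain of acyl-CoA esters inside peroxisomes, which in plants are the main site of fatty acid breakdown. Acyl-CoA oxidases carry out the first step and release hydrogen peroxide, multifunctional proteins hydrate and then oxidise the product, and thiolases cleave off acetyl-CoA. The pathway is known for the use of storage oil by seedlings, for the turnover of membrane fatty acids in leaves that starve or senesce, and for the last steps of jasmonate synthesis and the conversion of indole-3-butyric acid to auxin. Each of the 3 steps has several isoforms in Arabidopsis, which differ in their preferred chain length and in the organs where they matter.

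The treatment was visible in the heat response. The heat stress transcription factor gene HSFA2 averaged 1182 ± 109 in Heat08hr and 4930 ± 367 in Heat24hr (SD, n = 3 each), against 19.46 ± 14.97 in Control08hr (n = 6) and 14.83 ± 12.97 in Control24hr (n = 9). The 2% trimmed mean of the signals lay between 494.5 and 496.8 on every array, while the median signal was 119.8 to 133.6 on the 6 heat arrays, 160.1 to 175.8 on the 6 recovery arrays and 162.0 to 175.9 on the 15 control arrays. The third replicate of Recovery08hr stood apart from the other 2, so its group is also given without it. The SD of log2 differences over probe sets whose signal averaged 100 or more was 0.623 and 0.716 to this array. Between replicates 1 and 2 it was 0.360. In Recovery24hr it was 0.577 between replicates 1 and 3, 0.425 between 2 and 3 and 0.392 between 1 and 2. The 18-day replicate 1 of Control24hr gave 0.443 to 0.494 against the rest of its group, where the other pairs gave 0.300 to 0.432. The labels give the tissue as leaf, whereas aerial parts were harvested according to the methods. None of the 4 chosen leaf markers or 2 flower markers had a named probe set here. The seed marker OLEO1 and the pollen marker GRP14 were near the floor in every group (means of 20.9 to 35.2 and 10.2 to 21.9). The root marker PYK10, which is also known from hypocotyls of seedlings, averaged 175.5, 66.7, 138.6 and 1174 in Heat08hr, Heat24hr, Recovery08hr and Recovery24hr, against 1123 in Control08hr and 999 in Control24hr. It was lower at Heat08hr, Heat24hr and Recovery08hr, as were some genes below, and whether tissue composition contributed to those results was not tested. In whole aerial parts, fewer cells of a type and less RNA per cell cannot be told apart.

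Each treated group was set against the control plants of the same clock time with limma, a linear model with a variance moderated over all probe sets, on log2 signals. A gene was called higher or lower at a Benjamini-Hochberg adjusted p under 0.05 over all 22746 probe sets together with a change of at least 1.5-fold. At Heat08hr, 1 of the 10 genes was called higher and 3 lower, where 14.6% of all probe sets were called higher and 23.8% lower. At Heat24hr, 5 were called higher and 2 lower, against 19.9% and 28.9% of all probe sets. At Recovery08hr the counts were 3 higher and 2 lower, against 21.7% and 23.2%. At Recovery24hr, 6 were called higher and 0 lower, against 11.8% and 13.3%. At an unadjusted p under 0.05, 1 gene was below Control24hr at Recovery24hr, which was KAT5. The median log2 fold change of the 10 genes was -0.02, 0.60, -0.03 and 0.80 in these 4 comparisons, beside -0.13, -0.22, -0.09 and -0.07 over all probe sets. Centring every array on its median moved the median over all probe sets to 0.25 at Heat08hr and 0.19 at Heat24hr. This shift is the same for every probe set of a comparison, so the 10 genes moved with it. ACX1 at Heat08hr, for example, went from -0.23 to 0.14. Without replicate 3 of Recovery08hr no call of the 10 genes changed. Heat08hr and Recovery08hr share the Control08hr arrays, and Heat24hr and Recovery24hr share the Control24hr arrays.

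**Figure D1:**
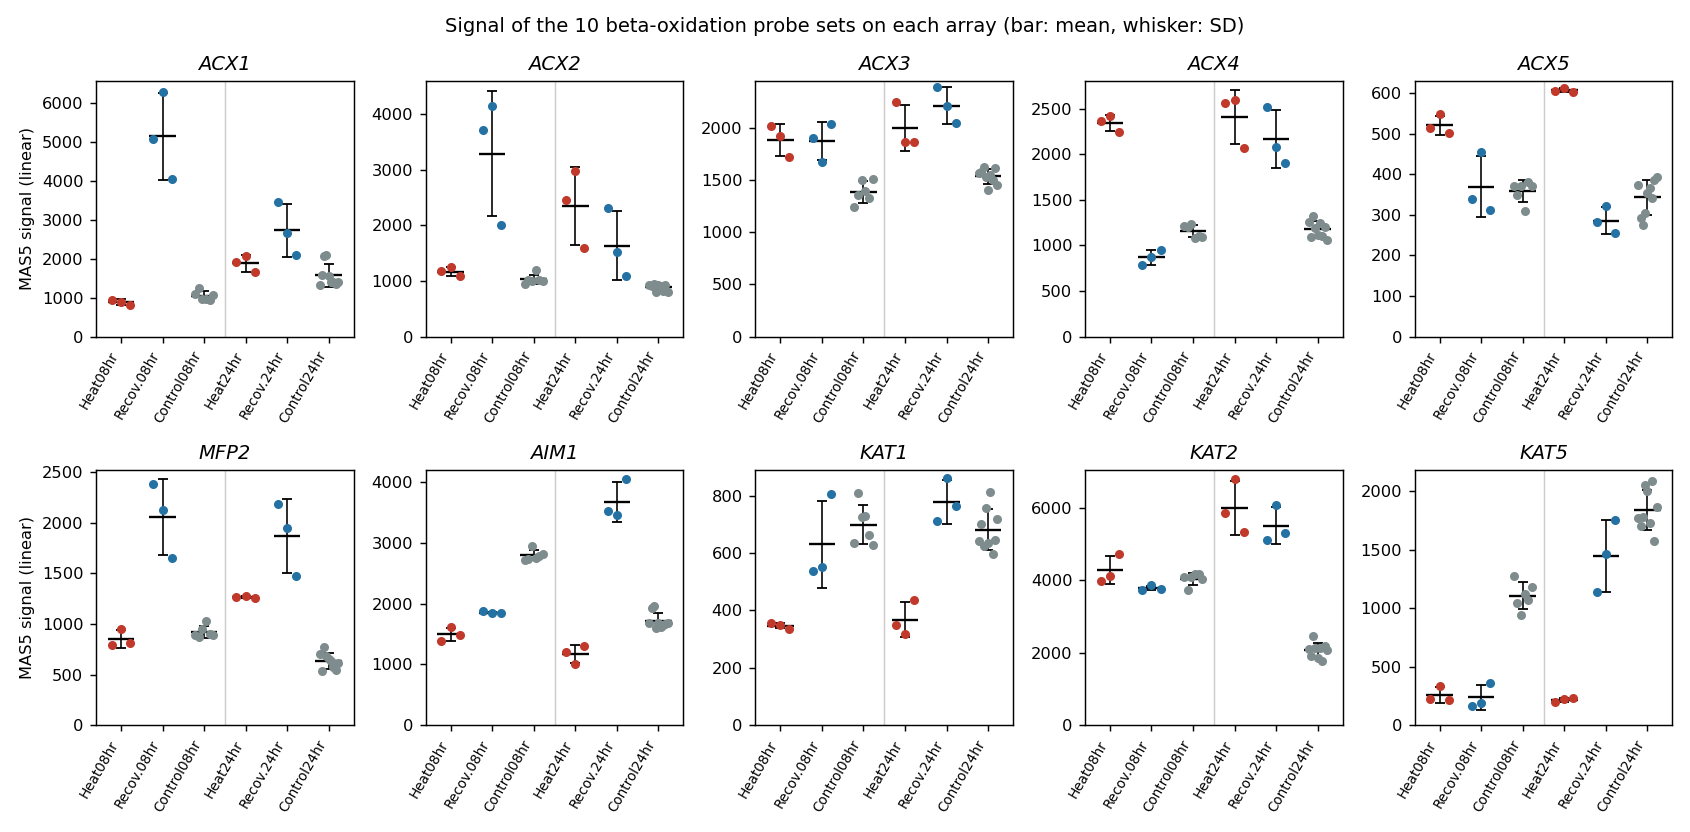
MAS5 signal (linear axis from 0) of each of the 10 genes on each array in Heat08hr, Recovery08hr and Control08hr (left of the line) and Heat24hr, Recovery24hr and Control24hr (right of it); points are arrays, bars are means and whiskers the SD. The 3 Recovery08hr arrays of ACX1 lie between 4053 and 6281, all above the Control08hr arrays, and the Heat24hr arrays of KAT5 lie between 197 and 230.5, all below the Control24hr arrays.

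Of the oxidases, ACX1 carried the highest rise of the 10 genes over the control plants, and it did so in recovery. ACX1 prefers medium to long chains and also serves jasmonate synthesis. Its signal was 5063, 6281 and 4053 on the 3 Recovery08hr arrays, against a lowest, median and highest value of 936, 1011 and 1239 in Control08hr. This was 4.87-fold (log2 fold change 2.28, SE 0.156, adjusted p = 6.69e-06 by limma), and 2.44 on the log2 scale without replicate 3. At Recovery24hr it was 3440, 2652 and 2084, against 1332, 1406 and 2093 in Control24hr, so that the lowest recovery array lay within the control range. The change was 1.72-fold (log2 0.78, SE 0.182, adjusted p = 0.00554), and with only the 20-day-old controls its adjusted p was 0.0531. Heat left ACX1 uncalled, with 947, 894 and 816 in Heat08hr (log2 -0.23, adjusted p = 0.12) and 1910, 2064 and 1647 in Heat24hr (log2 0.27, adjusted p = 0.174, and 0.68 with median centring, past 1.5-fold).

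ACX2, the long-chain oxidase, was higher in late heat and in both recovery groups. It gave 2454, 2983 and 1590 in Heat24hr, against 797, 911 and 941 as the lowest, median and highest of Control24hr, a 2.57-fold rise (log2 1.36, SE 0.152, adjusted p = 7.45e-06). In Recovery08hr it gave 3706, 4144 and 2014, against 950, 1004 and 1199 in Control08hr (3.07-fold, log2 1.62, SE 0.217, adjusted p = 0.000284, and log2 1.94 without replicate 3). In both groups no treated array overlapped the controls, yet the spread among the 3 treated arrays was wide and replicate 3 was the lowest. In Recovery24hr the signals were 2303, 1521 and 1080 (log2 0.82, adjusted p = 0.00307). That call was lost without replicate 1 (log2 0.54, under 1.5-fold) and with only the 20-day-old controls (adjusted p = 0.134). In Heat08hr ACX2 was not called (log2 0.19, adjusted p = 0.148).

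ACX4, which acts on short chains, was the single gene of the 10 called higher at Heat08hr. Its Heat08hr signals were 2366, 2418 and 2244, against 1080, 1152 and 1236 as the lowest, median and highest of Control08hr (2.03-fold, log2 1.02, SE 0.0783, adjusted p = 1.07e-05). At Heat24hr they were 2565, 2597 and 2067, against 1060, 1190 and 1319 in Control24hr (2.04-fold, log2 1.03, SE 0.0972, adjusted p = 1.64e-06). The rise was thus of about the same size after 8 and 24 h of heat, and the difference between the 2 heat effects was 0.01 on the log2 scale, with a 95% interval of -0.24 to 0.26. In Recovery08hr the signals were 785, 871 and 951, all below the Control08hr arrays, though the 1.33-fold difference stayed under the fold threshold (adjusted p = 0.00756), which it passed with quantile normalization (log2 -0.59). In Recovery24hr ACX4 gave 2517, 2078 and 1901, again above all controls (1.83-fold, log2 0.87, adjusted p = 5.77e-05).

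ACX5, the closest relative of ACX1, took another course. Its signals in Heat24hr were 605, 611 and 602, against 275, 354 and 393 in Control24hr (1.78-fold, log2 0.83, SE 0.117, adjusted p = 5.64e-05). In Heat08hr they were 513, 547 and 501, against 308, 371 and 380 in Control08hr, which at 1.45-fold was under the threshold (adjusted p = 0.00098), and past it with median centring (log2 0.91) or quantile normalization (0.65). Neither recovery group was called, with log2 fold changes of 0.03 (Recovery08hr, 95% interval -0.29 to 0.34) and -0.26 (Recovery24hr, -0.54 to 0.02). The probe set of ACX3, the medium-chain oxidase, was called in none of the 4 comparisons. Its fold changes were 1.359, 1.296, 1.347 and 1.441 at Heat08hr, Heat24hr, Recovery08hr and Recovery24hr, each with all treated arrays above all control arrays and an adjusted p of 0.00026 to 0.00891. With median centring it was past 1.5-fold at Heat08hr and Heat24hr (log2 0.81 and 0.79). All treated arrays lay above all controls for 19.2%, 21.6%, 25.2% and 14.4% of all probe sets in these comparisons, and below them for 27.2%, 28%, 23.5% and 13.5%.

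The multifunctional protein genes moved apart from each other in both heat groups and in Recovery08hr, and both were called higher at Recovery24hr. MFP2, the isoform of long-chain breakdown in seedlings, was higher than in control plants in 3 of the 4 comparisons. It gave 1264, 1281 and 1256 in Heat24hr and 2188, 1951 and 1471 in Recovery24hr, against 535, 634 and 770 as the lowest, median and highest of Control24hr. These were rises of 2.01-fold (log2 1.01, SE 0.111, adjusted p = 6.97e-06) and 2.92-fold (log2 1.55, SE 0.140, adjusted p = 9.87e-06). In Recovery08hr it gave 2386, 2131 and 1651, against 871, 898 and 1028 in Control08hr (2.20-fold, log2 1.14, adjusted p = 0.000108, and log2 1.29 without replicate 3). The Heat08hr arrays, at 792, 954 and 816, overlapped the controls (log2 -0.12, adjusted p = 0.348).

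AIM1, known for its role in inflorescence development and in short-chain and aromatic substrates, was the 1 gene called in both directions. Its Heat08hr signals were 1379, 1609 and 1491, against 2723, 2770 and 2944 as the lowest, median and highest of Control08hr (1.87-fold lower, log2 -0.91, SE 0.0746, adjusted p = 1.57e-05). In Recovery08hr they were 1872, 1844 and 1849 against the same controls, a 1.51-fold decrease just past the fold threshold (log2 -0.59, adjusted p = 0.000258). At Heat24hr AIM1 gave 1203, 1006 and 1304, against 1600, 1680 and 1961 in Control24hr, all below the controls but at 1.47-fold just short of the threshold (adjusted p = 0.000312). In Recovery24hr it gave 3517, 3462 and 4052, which was 2.14-fold above Control24hr (log2 1.098, SE 0.0898, adjusted p = 5.55e-06). With arrays centred on their medians the Heat08hr and Recovery08hr decreases were -0.53 and -0.57 on the log2 scale, under 1.5-fold. Over 13 alternative settings the Heat24hr decrease ranged from -0.64 to -0.14 on the log2 scale, with an adjusted p of up to 0.18 by limma.

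**Figure D2:**
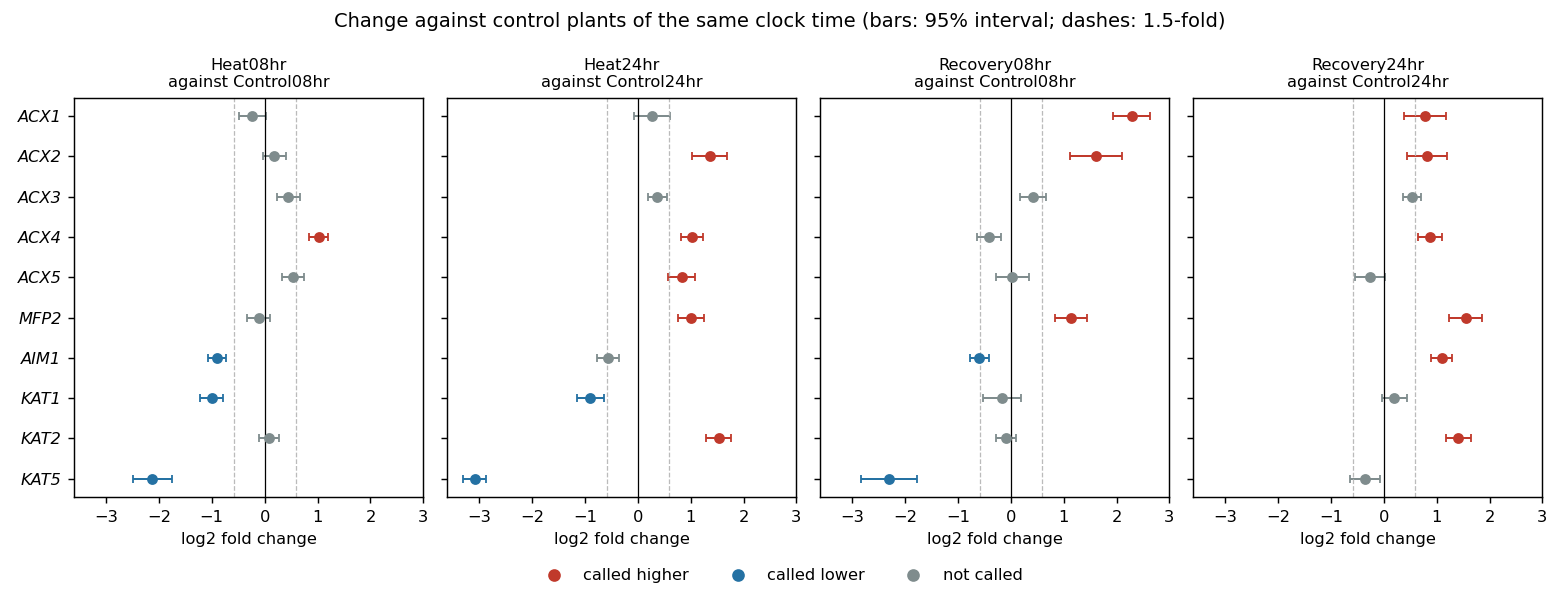
Log2 fold change of each gene in Heat08hr, Heat24hr, Recovery08hr and Recovery24hr against control plants of the same clock time; points are limma estimates, bars their 95% intervals, dashes mark 1.5-fold, and colours give the call. ACX1 reaches 2.28 at Recovery08hr and KAT5 reaches -3.08 at Heat24hr.

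The thiolase genes showed 3 different courses. KAT2, which encodes the main thiolase of seedlings and of senescing leaves, was higher in both 24hr groups and in neither 08hr group. Its signals were 5861, 6805 and 5337 in Heat24hr and 5116, 6087 and 5318 in Recovery24hr, against 1776, 2102 and 2469 as the lowest, median and highest of Control24hr. The rises were 2.89-fold (log2 1.53, SE 0.109, adjusted p = 1.26e-07) and 2.66-fold (log2 1.41, SE 0.105, adjusted p = 2.95e-06). At the earlier hours it gave 3992, 4131 and 4727 in Heat08hr and 3748, 3865 and 3754 in Recovery08hr, against 3733, 4092 and 4185 in Control08hr, with log2 fold changes of 0.08 (adjusted p = 0.485) and -0.10 (adjusted p = 0.367).

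KAT5, whose transcripts encode a cytosolic and a peroxisomal form, was lower than in control plants in both heat groups and in Recovery08hr. Its signals were 197, 226 and 230.5 in Heat24hr, against 1573, 1782 and 2088 as the lowest, median and highest of Control24hr, an 8.45-fold decrease (log2 -3.08, SE 0.1, adjusted p = 1.92e-10). In Heat08hr they were 224, 337 and 216 (4.35-fold lower, log2 -2.12, SE 0.160, adjusted p = 9.75e-06) and in Recovery08hr 164, 191 and 358 (4.93-fold lower, log2 -2.30, SE 0.233, adjusted p = 5.67e-05), against 946, 1099 and 1277 in Control08hr. The third Recovery08hr array was the highest of its group, and without it the change was -2.64 on the log2 scale. In Recovery24hr the signals were 1138, 1464 and 1752, overlapping the controls, and KAT5 was not called (log2 -0.36, adjusted p = 0.0483). The root marker PYK10 was likewise lower at Heat08hr, Heat24hr and Recovery08hr (log2 -2.67, -3.93 and -3.06) and not called at Recovery24hr (log2 0.27), and its part in the KAT5 result was not tested.

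KAT1, a second peroxisomal thiolase, was lower than in control plants at both heat times and was called in neither recovery group. Its signals were 355, 349 and 337 in Heat08hr, against 629, 695 and 809 in Control08hr (2.01-fold lower, log2 -1.004, SE 0.0982, adjusted p = 4.39e-05). In Heat24hr they were 350, 317 and 435, against 595, 646 and 811 in Control24hr (1.86-fold lower, log2 -0.90, SE 0.118, adjusted p = 3.14e-05), a change that shrank to -0.48 when arrays were centred on their medians. In the recovery groups the log2 fold changes were -0.17 (Recovery08hr, adjusted p = 0.408) and 0.20 (Recovery24hr, adjusted p = 0.181), with arrays that overlapped the controls.

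Isoforms of 1 step were also set side by side as the log2 ratio of their signals within each array, less the mean of the controls of the same clock time. These ratios restate the values above and were chosen after those had been seen, so they are given as a description with no test. The MFP2 to AIM1 ratio was higher by 0.79 at Heat08hr, 1.56 at Heat24hr and 1.73 at Recovery08hr, each without overlap with the controls, and by 0.45 with overlapping arrays at Recovery24hr. The KAT2 to KAT1 ratio was higher by 1.08, 2.43 and 1.21 at Heat08hr, Heat24hr and Recovery24hr, and differed by 0.07 with overlapping arrays at Recovery08hr. The KAT2 to KAT5 ratio was above all controls in the 4 comparisons, by 2.20, 4.61, 2.21 and 1.77 at Heat08hr, Heat24hr, Recovery08hr and Recovery24hr.

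Among the oxidases, the ACX1 to ACX4 ratio had opposite signs in heat and in early recovery. It was lower by 1.25 at Heat08hr and by 0.76 at Heat24hr in log2 units, and it was higher by 2.70 at Recovery08hr, with no overlap of arrays. At Recovery24hr the difference was -0.09, with overlapping arrays. The ACX1 to ACX5 ratio differed by -0.77, -0.57 and 2.26 at Heat08hr, Heat24hr and Recovery08hr, and by 1.04 at Recovery24hr. Opposite signs in heat and early recovery were not particular to these pairs. In the same 3 groups ACX1 to ACX2 differed by -0.42 (with overlapping arrays), -1.09 and 0.67, and ACX3 to ACX4 by -0.58, -0.66 and 0.84. The ratios of ACX2 to ACX3, ACX4 and ACX5 were lower at Heat08hr but higher at Recovery08hr, without overlap with the controls. At Heat24hr they were higher by 0.99, 0.33 and 0.53, with overlapping arrays for the ratios to ACX4 and ACX5. A ratio within an array shows that 2 probe sets changed unequally and not which of them changed.

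**Figure D3:**
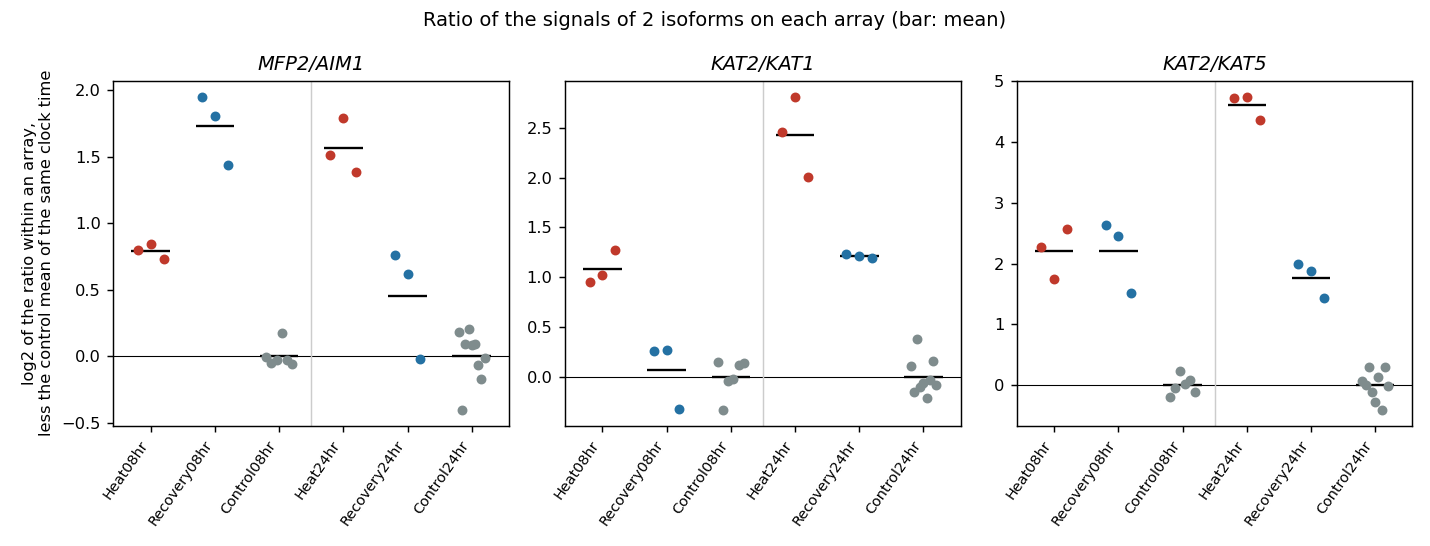
Log2 ratio of the signals of MFP2 to AIM1, KAT2 to KAT1 and KAT2 to KAT5 on each array, less the mean of the control arrays of the same clock time (0 line), for Heat08hr, Recovery08hr and Control08hr (left) and Heat24hr, Recovery24hr and Control24hr (right); points are arrays and bars means. The 3 Heat24hr arrays of KAT2 to KAT5 lie between 4.36 and 4.74, above all Control24hr arrays.

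Some of the genes also differed between the clock times in plants kept at 22 °C. In Control08hr (about 11 h after light onset) against Control24hr (about 3 h after light onset), 2 genes were called higher and 1 lower, where 8.22% of all probe sets were called higher and 7.84% lower. KAT2 averaged 4051 ± 165 in Control08hr (SD, n = 6) and 2075 ± 206 in Control24hr (SD, n = 9), 1.96-fold higher in the later hours of the light period (log2 0.97, SE 0.0686, adjusted p = 2.57e-08). AIM1 averaged 2794 ± 81.3 in Control08hr and 1717 ± 131 in Control24hr (1.63-fold, adjusted p = 9.44e-08). KAT5 ran the other way, with 1109 ± 115 in Control08hr and 1841 ± 174 in Control24hr (log2 -0.73, adjusted p = 2.95e-06). MFP2 (log2 0.55, adjusted p = 7.45e-05), ACX1 (log2 -0.58, adjusted p = 0.000977) and ACX2 (log2 0.21, adjusted p = 0.017) did not overlap between the 2 control groups but were under 1.5-fold. ACX1 was past that limit with median centring (log2 -0.62). The Control08hr arrays were all above for 9.74% and all below for 8.76% of all probe sets. The means of the age groups of control plants differed by at most 0.13 (Control08hr) and 0.22 (Control24hr) on the log2 scale for any of the 10 genes. This was less than the clock-time differences of KAT2, AIM1, KAT5, MFP2 and ACX1. It was not less for every gene, as with ACX5 (0.13 between ages in Control08hr, 0.07 between clock times) and KAT1 (0.11 between ages in Control24hr, 0.04 between clock times).

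The heat effect at 24 h less that at 8 h was tested as an interaction over both heat and both control groups. It was called higher for 3 genes and lower for 1, where 14.1% of all probe sets were called higher and 15.6% lower. It was 1.45 for KAT2 on the log2 scale (SE 0.134, adjusted p = 5.1e-08), 1.17 for ACX2 (SE 0.186, adjusted p = 4.73e-05) and 1.12 for MFP2 (SE 0.142, adjusted p = 3.4e-06), none of which was called at Heat08hr. For KAT5 it was -0.96 (SE 0.178, adjusted p = 0.000254). The signals of KAT5 in the heated plants lay close together, with 259 ± 67.2 in Heat08hr and 218 ± 18.2 in Heat24hr (SD, n = 3 each), while its control level differed between the clock times. For KAT2 both differed, as Heat24hr averaged 6001 ± 744 and Heat08hr 4283 ± 390.

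Recovery plants were also compared with heated plants of the same clock time, with 3 arrays in each group. In Recovery08hr against Heat08hr, 4 genes were called higher and 1 lower, where 21.8% of all probe sets were called higher and 16.2% lower. ACX1 was 5.71-fold higher (log2 2.51, SE 0.208, adjusted p = 0.00102), MFP2 2.39-fold higher (adjusted p = 0.00578) and ACX4 2.70-fold lower (log2 -1.43, adjusted p = 0.00165). ACX2 (log2 1.43, adjusted p = 0.0159) and KAT1 (log2 0.84, adjusted p = 0.0248) were called higher as well, but ACX2 lost its call without Recovery08hr replicate 1 or without Heat08hr replicate 1 or 3 (adjusted p of 0.052 to 0.0575) and KAT1 without any 1 Heat08hr array (0.0719 to 0.0727). With median centring the values were 1.08 for ACX2 (adjusted p = 0.0515) and 0.49 for KAT1 (adjusted p = 0.0907), neither of them called. KAT1 also lost its call with quantile normalization (adjusted p = 0.0845) and in a fit with a replicate block (adjusted p = 0.0719). ACX5 was not called (log2 -0.51, adjusted p = 0.0849), but was called lower with median centring (log2 -0.86, adjusted p = 0.0273), with quantile normalization (log2 -0.73) and without Recovery08hr replicate 2 (log2 -0.67). KAT5 was not called (log2 -0.18, 95% interval -1.09 to 0.73), so its signal at Recovery08hr could not be told from that at Heat08hr.

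In Recovery24hr against Heat24hr, 3 genes were called higher and 1 lower, against 23.6% and 17% of all probe sets. KAT5 was 6.58-fold higher (log2 2.72, SE 0.205, adjusted p = 0.000691), AIM1 3.15-fold (log2 1.66, adjusted p = 0.00131) and KAT1 2.13-fold (log2 1.09, adjusted p = 0.00592). ACX5 was 2.13-fold lower, with 282, 321 and 254 in Recovery24hr and 605, 611 and 602 in Heat24hr (adjusted p = 0.00308). KAT2 was not called, with a difference of -0.12 on the log2 scale (95% interval -0.53 to 0.28), and with median centring it and ACX4 were called lower (log2 -0.60 and -0.64).

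The other genes of the pathway were taken from a list of 17 genes with 18 probe sets, which covers import, activation, auxiliary enzymes, hydrolases, thioesterases and ATP carriers. Of the 18, 2 were called higher and 4 lower at Heat08hr, 7 and 3 at Heat24hr, 6 and 2 at Recovery08hr, and 9 higher at Recovery24hr, where the other 9 were not called. Over all probe sets, 14.6% were called higher and 23.8% lower at Heat08hr, 19.9% and 28.9% at Heat24hr, 21.7% and 23.2% at Recovery08hr, and 11.8% and 13.3% at Recovery24hr. The enoyl-CoA isomerase gene ECI3, named here after its values were seen, fell further at Heat24hr than KAT5 (log2 -4.70, SE 0.118, adjusted p = 3.35e-11). PXA1, the transporter that brings fatty acids into the peroxisome, was higher at Heat08hr, Heat24hr and Recovery08hr (log2 1.06, 0.95 and 0.67, adjusted p = 2.53e-05, 8.39e-07 and 0.00115) and not called at Recovery24hr (log2 0.13). The peroxisomal acyl-CoA synthetase genes LACS6 and LACS7 activate fatty acids before the oxidases. Both were lower at Heat08hr (log2 -0.97 and -0.88) and higher at Heat24hr (log2 1.09 and 0.72) and Recovery24hr (log2 1.499 and 1.517). The control level of LACS6 differed between the clock times, with 2311 in Control08hr and 668 in Control24hr (log2 1.81, adjusted p = 5.72e-09 by limma). LACS6 averaged 1180 in Heat08hr and 1404 in Heat24hr. LACS7 averaged 198 and 548 in these heat groups, against 364 in Control08hr and 334 in Control24hr. LACS7 was also higher at Recovery08hr (log2 2.09, adjusted p = 1.56e-06). ECH2, an enoyl-CoA hydratase gene, was higher in both 24hr groups (log2 0.87 at Heat24hr and 0.83 at Recovery24hr, adjusted p = 8.78e-06 and 8.75e-05), as KAT2 was. ACX6, a close relative of ACX3, was near the floor in every group (means of 16.9 to 35.6) and was not called.

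**Figure D4:**
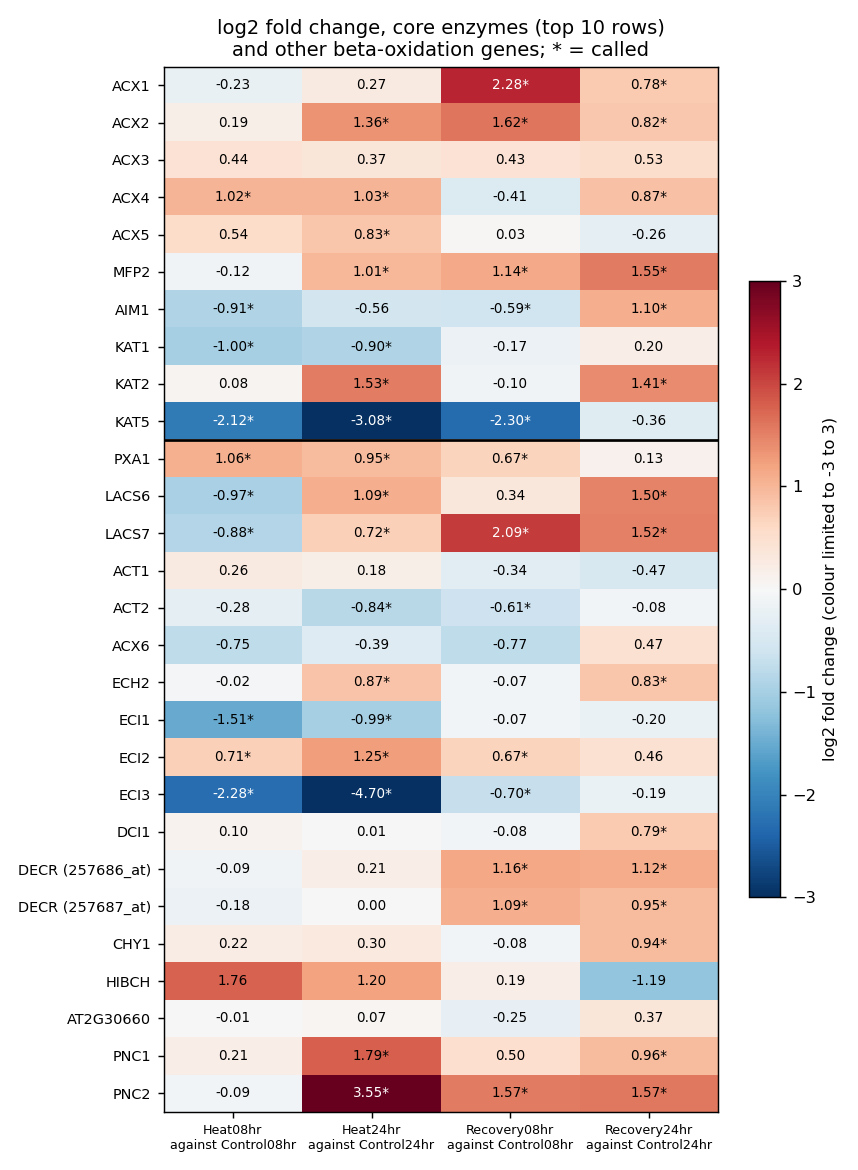
Log2 fold change of the 10 core genes (top) and the 18 probe sets of other β-oxidation genes (below the line) in Heat08hr, Heat24hr, Recovery08hr and Recovery24hr, each against control plants of the same clock time; colour and number give the value, and asterisks mark calls. KAT2 and ECH2 are called higher in the 24hr columns, with 1.53 and 0.87 at Heat24hr.

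Few genes of the neighbouring processes had a named probe set, so that no statement on those processes can be made. Of 8 genes of jasmonate synthesis upstream of β-oxidation, 1 had a named probe set, OPCL1, whose product activates the jasmonate precursor for ACX1. The log2 fold changes of OPCL1 were -2.29 at Heat08hr, 0.40 at Heat24hr, 0.64 at Recovery08hr and 0.76 at Recovery24hr. It was called lower at Heat08hr and higher in both recovery groups, where its arrays overlapped the controls. The lowest Recovery08hr array was at 518 and the highest Control08hr array at 565. For Recovery24hr and Control24hr these were 401 and 456. Of 18 peroxisome biogenesis genes 2 had a named probe set. PEX11D, a peroxisome division gene, was lower at Heat08hr, Heat24hr and Recovery08hr (log2 -1.12, -1.62 and -2.10), and PEX10 was not called. None of the 3 catalase genes had a named probe set. Of 6 senescence genes 2 had a named probe set, SAG13 and WRKY53. Both were called higher at Recovery08hr (log2 7.07 and 2.14) and Recovery24hr (log2 4.96 and 1.91) and at neither heat time. SAG13 averaged 1440 in Recovery08hr and 1258 in Recovery24hr, against 13.5 in Control08hr, and the lowest, median and highest Control24hr arrays were at 4.64, 32.4 and 690.1 (the highest being 18 days, replicate 1). The Recovery24hr arrays were at 1631, 1654 and 488 for SAG13 and at 162, 217 and 63.1 for WRKY53. For both genes replicate 3 lay below the highest Control24hr array, which was at 91.0 for WRKY53. Recovery08hr and Recovery24hr are also the groups in which ACX1 was called higher, and the part of senescence in that result was not tested. Of 4 heat genes 2 had a named probe set, and HSA32, like HSFA2, was called higher at Heat08hr (log2 6.32) and Heat24hr (log2 5.58). Both were still called higher at Recovery08hr (log2 3.36 for HSA32 and 2.92 for HSFA2), and HSA32 also at Recovery24hr (log2 2.19). The Recovery08hr arrays of HSFA2 were at 182, 199 and 34.7, and replicate 3 lay within the Control08hr range of 2.98 to 45.5.

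Across the 27 arrays, the signals of the 10 genes did not follow a single course. As a description over arrays that share their treatment groups, the highest Pearson correlation of log2 signals between any 2 of them was 0.85 (ACX2 and MFP2), and the lowest was -0.85 (ACX5 and KAT1). Over 4 comparisons with controls, 6 genes were called higher at least once and lower never (ACX1, ACX2, ACX4, ACX5, MFP2 and KAT2), 2 were called lower at least once and higher never (KAT1 and KAT5), AIM1 was called in both directions and ACX3 in neither. Among 7944 other probe sets with 1 named gene and a mean signal of at least 100, those most like ACX1 over the 27 arrays were TBL37 (AT2G34070, r = 0.97), AT5G17380 (r = 0.97) and UGT87A2 (AT2G30140, r = 0.95). Most like MFP2 were AT1G30630 (r = 0.94), IDH-V (AT5G03290, r = 0.93) and AT5G09270 (r = 0.93). Most like KAT2 were AT1G33970 (r = 0.94), ECH2 (AT1G76150, r = 0.93) and AT4G01610 (r = 0.92).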

How the data were processed

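The intensity values are MAS5 signals as deposited by the authors, who used GeneSpring version 12. Their processing gave a nearly equal trimmed mean on every array, and how is not given in the sources used here. Each comparison was a limma fit (version 3.58.1, R 4.3.3; lmFit, eBayes) of log2 signals that held its own groups alone, and controls of 1 clock time were pooled over ages. The table, its lowest value 1, holds 22746 probe sets. Probe sets were paired with genes through the study's gene table (228 probe sets) and the platform annotation (14016 listed). Probe sets named in neither were paired through a further supplementary list of the study, as were those of HSFA2, SAG13, PEX11D and PEX10. All 10 genes and the lists were chosen with earlier results of these data known. All 10 are named whatever they showed, others by counts or as stated. Likeness was Pearson's r. The fit was tested on simulated data. Deviations of same-numbered replicates had a median r of 0.03 over 108 pairs, of which 12 were over 0.1. For replicates of different numbers the median r was -0.01 over 216 pairs, with 8 over 0.1. A weak link between same-numbered replicates is therefore possible. Arrays were not paired in the main fits, and a replicate block was used as an alternative. Alternatives were other scalings, an added 16, a signal minimum of 100, other fold limits, the replicate block, controls of the same age, 1 fit to all arrays and leaving out arrays. The number of arrays limits the precision. Figures were drawn with matplotlib 3.10.9.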

Additional observations from a re-analysis of the deposited data

Results flagged for a closer look

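For 4 genes the heat effect at 24 h differed from that at 8 h in the interaction test, with log2 differences of 1.45 for KAT2, 1.17 for ACX2, 1.12 for MFP2 and -0.96 for KAT5. Hours of heat and clock time cannot be told apart in these differences.

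In the control groups, 2 arrays stood far from the rest of their group for 1 gene each, out of 20 such groups tested, where chance alone gives about 1 in 20. The highest ACX2 signal of Control08hr was 1199 (19 days, replicate 2), beside a next highest of 1014 and a median of 1004. The lowest KAT2 signal of Control08hr was 3733 (19 days, replicate 1), beside a next lowest of 4034 and a median of 4092.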

How the results depend on the processing

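Of 1070 values of single genes under the alternatives, 987 kept their direction and their side of the thresholds, 34 lost a call, 27 gained one and 22 changed sign, none of them a called value. Counts of the 10 genes moved by over 1.5 times as follows. With median centring, 3 were higher at Heat08hr, 1 lower at Heat24hr, 1 lower at Recovery08hr, 2 lower in Control08hr against Control24hr, 2 higher and 2 lower in Recovery08hr against Heat08hr, and 3 lower in Recovery24hr against Heat24hr. With quantile normalization, 2 were higher at Heat08hr and 2 lower in Recovery08hr against Heat08hr. With age-matched controls, 1 was lower at Recovery08hr. With no fold limit, 3 were higher at Heat08hr, 1 lower at Recovery24hr, and 4 higher and 2 lower in Control08hr against Control24hr. A limit of 2-fold left 1 lower at Heat24hr, 1 lower at Recovery08hr, 3 higher at Recovery24hr, 0 higher and 0 lower in Control08hr against Control24hr, and 0 lower in the interaction. The study's limits (above 1.5-fold, below 0.5-fold) left 1, 1, 0 and 0 lower at Heat24hr, Recovery08hr, Control08hr against Control24hr and the interaction. Leaving out 1 array gave 2 to 4 higher and 1 to 2 lower in Recovery08hr against Heat08hr (2 higher without Heat08hr replicate 1 or 3, 2 lower without Recovery08hr replicate 2).

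Values that changed sign, all small and uncalled, were these. With median centring they were ACX1 0.14 and MFP2 0.26 at Heat08hr, KAT1 -0.0056 in Control08hr against Control24hr, AIM1 -0.0334 in Recovery08hr against Heat08hr and ACX3 -0.33 in Recovery24hr against Heat24hr. With quantile normalization they were KAT2 -0.0024 at Heat08hr, ACX5 -0.0756 and KAT2 0.13 at Recovery08hr, ACX4 -0.0045 in the interaction, ACX3 0.001 and KAT2 0.14 in Recovery08hr against Heat08hr and KAT2 0.14 in Recovery24hr against Heat24hr. Leaving out 1 array gave -0.1325 to 0.1364 for ACX5 at Recovery08hr, -0.0486 to 0.1161 for ACX4 and -0.0199 to 0.2071 for KAT1 in the interaction, and -0.0786 to 0.0651 for ACX3 and -0.5179 to 0.045 for KAT5 in Recovery08hr against Heat08hr.

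With the replicate block, KAT1 in Recovery08hr against Heat08hr lost its call (adjusted p = 0.0719) and no other call of the 10 genes changed. No age-matched fit was run for Control08hr against Control24hr or for recovery against heat. The share of calls that were higher was 38.0% and 40.9% at Heat08hr and Heat24hr, and 57.4% and 58.2% in Recovery08hr against Heat08hr and Recovery24hr against Heat24hr. With median centring it was 60.6%, 58.4%, 37.6% and 34.8%, and with quantile normalization 48.8%, 51.1%, 48.8% and 46.7%. In these 4 comparisons median centring or quantile normalization changed at least 1 call of each gene except MFP2 and KAT5.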
